A study of Mus musculus with 21 samples.

Results

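The 39 genes described here are Myc and 38 genes whose products build ribosomes in the nucleolus. They were chosen by name, as genes of ribosome production and its transcriptional regulator, and every row with the matching gene symbol was taken. All 39 were among the 16835 genes listed in at least 1 of the 3 deposited tables, and all 39 passed the filter on low counts in each table.

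Myc encodes a transcription factor that pairs with Max, binds E-box sequences near gene starts, and drives growth programs that include ribosome production. Ribosomal RNA is transcribed by RNA polymerase I, modified under the guidance of small nucleolar ribonucleoproteins (snoRNPs), folded and cut in the small-subunit (SSU) processome, and then passed to separate paths for the 40S and the 60S subunit. Dividing tumor cells and activated T cells keep this pathway at a high level. Methionine, the amino acid removed in part by the diet, starts every protein chain and is the source of the methyl groups that rRNA methyltransferases use.

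Polyadenylated RNA was sequenced from mice on control chow or on a methionine-restricted (MR) diet. The groups were CD8+ T cells isolated from the spleen (3 control and 3 MR libraries), tumors of MC38, a mouse colon carcinoma line (4 control and 4 MR), and tumors of BPD6, a mouse melanoma line (4 control and 3 MR). The diet was the sole treatment that the labels name; strain, sex, age, the amount of methionine and the number of animals are not stated in the labels. They also do not say whether the libraries of a group came from separate animals, so each p-value measures the spread between these libraries, which may be technical. BPD6 MR libraries are numbered 1, 2 and 4, as the columns number them. A numbered tumor in the text below means 1 tumor library, and a count of tumors is a count of libraries.

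Total counts were 15733774 to 19562590 in the CD8+ T cell libraries, 16275832 to 24129562 in MC38 and 18346438 to 20835926 in BPD6. The summed level of 4 T cell markers was 1897 to 2505 CPM (a gene's count set to one common library total) in the CD8+ T cell libraries and at most 42.7 CPM in the tumor libraries. The tumor samples are labelled as tumor cells, yet held the macrophage and fibroblast transcripts given with the results. Defining genes of the tissue of origin were low or not listed: in MC38 the colon gene Cdx2 was not listed and Epcam did not pass 8.20 CPM, and in BPD6 the melanocyte genes Tyr, Dct and Mlana were not listed, Pmel did not pass 1.67 CPM and Mitf had 15.1 to 25.5 CPM. CPM here are scaled within each table by the trimmed mean of M-values (TMM), except where both tumor types are tested together.

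Promoters were available from RefSeq (build GRCm38.p6) for 34 of the 39 genes, as the 250 bases before and 50 after the gene start; those of Myc, Npm1, Fbl, Bop1 and Rrp12 were not used here. The palindromic E-box CACGTG was in 8 of these 34 promoters (23.5%), those of Utp4, Utp20, Wdr43, Tsr1, Ltv1, Pes1, Nop2 and Mybbp1a, and in 8.09% of the promoters of all 27025 genes in the same table. A second form, CACGCG on either strand, was in 11 of the 34 (32.4%) and in 10.5% of all promoters. The 27025 genes include genes not listed for these samples. They were not matched to the 34 for expression or base composition. Whether either motif is particular to these genes was not tested. The 4 windows below reach from 70 bases before to 30 after the gene start of the RefSeq table. They are shown, with the E-box in capitals, because the whole E-box falls inside that window and the start is that of the gene positions given here. Counting the start as base 1, the E-box begins at base 16 of Utp4 (chr8:106893570-106893669, plus strand), base 25 of Tsr1 (chr11:74898010-74898109, plus strand) and base 3 of Pes1 (chr11:3963905-3964004, plus strand). In Nop2 it begins 60 bases before the start (chr6:125131813-125131912, plus strand).
Utp4: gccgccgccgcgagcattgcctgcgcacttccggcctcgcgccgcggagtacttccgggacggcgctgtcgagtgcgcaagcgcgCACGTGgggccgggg
Tsr1: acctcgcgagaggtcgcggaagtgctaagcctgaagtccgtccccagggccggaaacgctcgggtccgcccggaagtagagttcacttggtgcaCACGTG
Pes1: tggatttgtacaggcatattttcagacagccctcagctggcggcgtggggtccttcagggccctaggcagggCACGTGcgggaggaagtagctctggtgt
Nop2: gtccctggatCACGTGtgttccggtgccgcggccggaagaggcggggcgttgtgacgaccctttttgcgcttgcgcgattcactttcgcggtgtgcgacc
A match to these letters is a description of the sequence and says nothing of binding in these samples.

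On control diet, most of these genes stood higher in MC38 tumors than in splenic CD8+ T cells, and BPD6 tumors lay nearer to the T cells. The CPM of the 39 genes summed to 4256 to 4446 in the 3 control T cell libraries, 8310 to 11025 in the 4 MC38 libraries and 4303 to 4842 in the 4 BPD6 libraries. The materials stand in separate tables that give each gene under 1 RefSeq transcript, and the transcript is the same in all 3 tables for 29 of the 39 genes, so levels are set side by side with no test.

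Myc had 142, 157 and 138 CPM in the control T cell libraries, 172, 223, 261 and 137 CPM in MC38 and 86.9, 129.8, 88.8 and 152 CPM in BPD6. The ranges of all 3 materials overlapped, and the MC38 libraries spread furthest. Myc was listed under another transcript for T cells than for the tumors. Per kb of coding sequence the Myc level was 107 ± 7.70 in T cells (SD, n = 3), 146 ± 40.1 in MC38 and 83.9 ± 23.4 in BPD6 (SD, n = 4 each).

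Of the 32 genes with the same transcript in the T cell and MC38 tables, 26 were higher in every control MC38 library than in every control T cell library, against 50.9% of all genes with the same transcript, and 0 were lower, against 30.9%. In BPD6 the same count was 11 higher and 13 lower of 30, against 43% and 36.6% of all such genes. Ncl, Ddx21 and Bop1, picked after their values were seen, are examples in which BPD6 was above the T cells. Among the 13 genes lower in BPD6 was Polr1b, with a mean of 78.2 CPM in control T cells and 39.6 CPM in control BPD6. Ncl, encoding the abundant nucleolar RNA-binding protein nucleolin, had 372, 411 and 409 CPM in control T cells, 1305, 1468, 1648 and 1229 in MC38 and 785, 740.2, 785 and 770.1 in BPD6. Ddx21, an RNA helicase that acts on RNA polymerase I genes and on pre-rRNA, had 77.3, 85.8 and 81.8 CPM in control T cells, 457, 399.9, 456 and 374 in MC38 and 235, 234, 217 and 255 in BPD6. For both genes the 3 materials did not overlap, with T cells lowest and MC38 highest. Bop1 differed from this order: its control libraries had 107, 96.5 and 84.6 CPM in T cells, 95.0, 123, 129 and 93.3 in MC38 and 165, 122, 130.5 and 134 in BPD6, so T cells and MC38 overlapped and BPD6 reached highest.

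Within a material, levels per kb of coding sequence spanned from Utp20, a very large scaffold protein of the SSU processome (10.1 in T cells, 15.5 in MC38 and 9.43 in BPD6; in BPD6 Rrp12 was lower still), to Npm1, the nucleolar chaperone nucleophosmin (823, 1936 and 716). RNA polymerase I subunits were among the lower: Polr1a, the largest catalytic subunit, had 14.1, 27.2 and 13.6 CPM per kb, while Polr1c, a subunit shared with RNA polymerase III, had 75.9, 94.3 and 47.9. Among the snoRNP proteins, the rRNA 2'-O-methyltransferase Fbl stood at 189, 232 and 122 CPM per kb, and the pseudouridine synthase Dkc1 at 73.3, 97.4 and 47.9. Dkc1 in T cells and Npm1 in BPD6 were listed under another transcript than in the other materials.

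**Figure D1:**
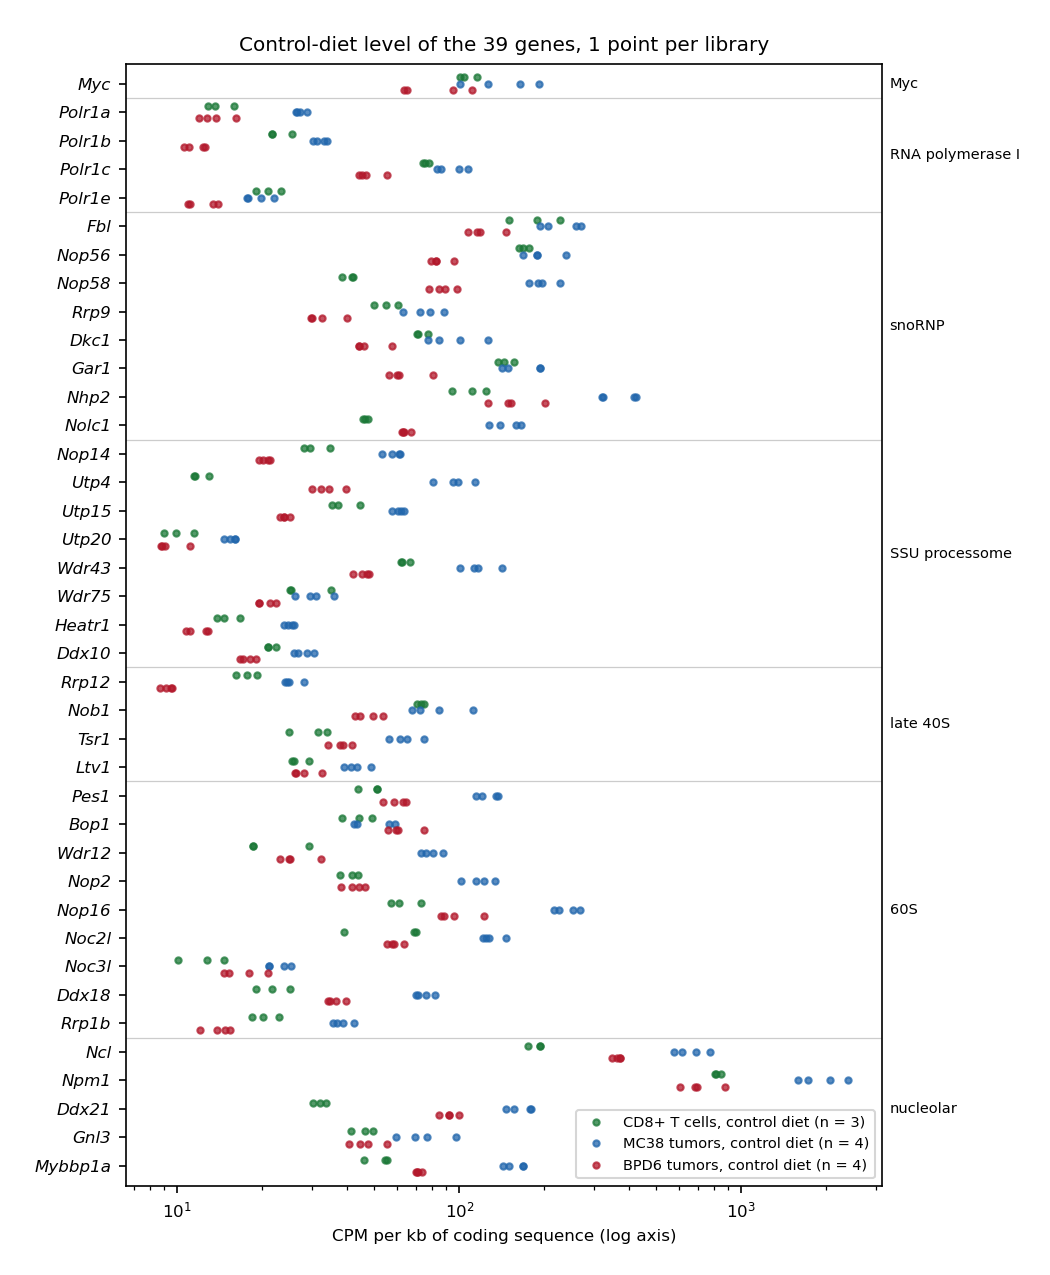
Level of the 39 genes in each control-diet library, as CPM per kb of coding sequence on a log axis, with 1 point per library and genes grouped by role. MC38 points lie to the right of the T cell points for most genes, Npm1 is the highest gene in all 3 materials, and for Bop1 the BPD6 points reach furthest right.

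In splenic CD8+ T cells, none of the 39 genes passed the test between diets (adjusted p under 0.05 by edgeR's quasi-likelihood test, 3 against 3 libraries), where 1.41% of 12348 genes did. Their log2 fold changes of MR over control ran from -0.32 to 0.48 with a median of 0.06, beside 0.0056 for all genes; 26 were above 0 and 13 below. At an unadjusted p under 0.05 there was 1 gene higher and 1 lower, where 8.5% and 8.83% of all genes were. Libraries of the 2 diets did not overlap for 6 genes with MR higher (Nolc1, Utp4, Wdr43, Tsr1, Pes1 and Gnl3), against 11.5% of all genes, and for 2 with MR lower (Dkc1 and Gar1), against 10.9%. The shares of the 39 genes, 15.4% and 5.13%, lie on either side of the background.

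The lowest p belonged to Utp4, encoding a WD-repeat protein of the SSU processome (chromosome 8, 106893640 to 106923094). Its level was 26.6, 23.7 and 23.8 CPM in the control and 31.2, 36.8 and 35.4 CPM in the MR libraries, so that every MR library was above every control library. On the log2 scale MR differed from control by 0.48 ± 0.16 (SE; edgeR adjusted p = 0.141). Gar1, a core protein of the H/ACA snoRNPs (chromosome 3, 129824912 to 129831407), had 99.4, 95.0 and 108 CPM in control and 79.6, 90.9 and 73.3 in MR libraries, and here every MR library was below every control library (-0.31 ± 0.14, edgeR adjusted p = 0.279). Dkc1, of the same particles (chromosome X, 75095854 to 75109776), likewise did not overlap, with 119, 109 and 108 CPM against 102, 92.9 and 91.4 (-0.23 ± 0.14, edgeR adjusted p = 0.412).

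Tsr1, a GTPase-like protein of late 40S assembly (chromosome 11, 74898080 to 74909340), was measured at 81.5, 76.1 and 59.9 CPM on control and 89.2, 89.2 and 83.2 on MR diet, again without overlap. This is 0.27 ± 0.15 as a log2 fold change (edgeR adjusted p = 0.382), and 0.15 without control library 3. Rrp1b, a nucleolar protein of 60S assembly, gave 0.33 ± 0.16 on the log2 scale (edgeR adjusted p = 0.314) and Heatr1, the HEAT-repeat scaffold that supports rRNA transcription and the SSU processome, gave -0.25 ± 0.15 (edgeR adjusted p = 0.395); both overlapped. Myc itself had 142, 157 and 138 CPM in control and 133, 125 and 149.8 in MR libraries, which overlapped (-0.10 ± 0.14, edgeR adjusted p = 0.756); without control or MR library 2 the value was -0.04, and without MR library 3 it was -0.17.

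By role, the T cell medians lay close to 0. They were 0.15 for the 5 nucleolar proteins, 0.09 each for the 4 polymerase subunits and the 4 late 40S factors, 0.07 for the 8 SSU processome genes, 0.05 for the 9 60S genes and -0.03 for the 8 snoRNP genes. Proliferation genes differed in the same libraries: 4 of 14 passed the test and fell with MR, where 101 of all 12348 genes did. They were Birc5, Rrm2, Mki67 and Cdk1, the first with a log2 fold change of -1.63 ± 0.29 and an edgeR adjusted p of 0.0152. Summed B cell markers were 46.8 to 254 CPM in control and 58.7 to 101 CPM in MR libraries, NK cell markers 145 to 268 and 81.9 to 155, and red cell markers 28.1 to 60.8 and 9.005 to 24.6. Macrophage markers summed to 200 to 357 CPM in control and 146 to 297 CPM in MR libraries. Of these 7 markers, 3 had log2 fold changes above 0 and 4 below. The part of these other cells in the T cell values was not tested.

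In MC38 tumors, again none of the 39 genes passed the test (edgeR adjusted p under 0.05, n = 4 against 4), and of all 14034 genes 0% did. The log2 fold changes ran from -0.34 to 0.25 with a median of -0.11, beside 0.02 for all genes, and 29 of the 39 were below 0, as were 46.4% of all genes. At an unadjusted p under 0.05 there were 7 genes lower with MR, against 6.81% of all genes, and 0 higher, against 7.3%. The same 7 were those whose diet groups did not overlap, all lower, where 4.72% of all genes were lower without overlap; 0 were higher without overlap, against 4.05%. In bulk tumors, fewer cells of a type and less RNA per cell cannot be told apart.

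These 7 genes were Rrp1b, Polr1b, Heatr1, Mybbp1a, Polr1a, Utp20 and Rrp12. Rrp1b (chromosome 17, 32036162 to 32062865) had 84.2, 77.1, 91.7 and 80.2 CPM in the control tumors and 67.9, 61.2, 64.1 and 70.5 CPM in the MR tumors. Its log2 fold change was -0.34 ± 0.085 (edgeR adjusted p = 0.255). Polr1b, the second-largest RNA polymerase I subunit (chromosome 2, 129100970 to 129128060), had 115, 107, 113 and 103 CPM on control and 84.2, 87.4, 90.9 and 96.4 on MR diet (-0.29 ± 0.079, edgeR adjusted p = 0.256). All 4 MR tumors were below all 4 control tumors for both genes.

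Heatr1 (chromosome 13, 12395375 to 12438893) was at 166, 164, 159 and 154 CPM in control and 117, 126, 133 and 145 CPM in MR tumors (-0.30 ± 0.087, edgeR adjusted p = 0.256). Mybbp1a, a nucleolar Myb-binding protein tied to rRNA transcription and processing (chromosome 11, 72441327 to 72451770), had 607, 680.3, 678 and 574 CPM against 551, 495, 558 and 523 (-0.26 ± 0.090, edgeR adjusted p = 0.297). MR tumors were again the lower group without exception for these genes. Polr1a (chromosome 6, 71909053 to 71979435) had 148, 137, 139.8 and 136 CPM and, on MR diet, 125, 114, 115 and 128 CPM (-0.22 ± 0.077, edgeR adjusted p = 0.298). Utp20 (chromosome 10, 88746607 to 88826814) had 129, 134, 134 and 123 CPM in control and 120.3, 107, 112 and 113 in MR tumors (-0.20 ± 0.074, edgeR adjusted p = 0.301). Rrp12, a HEAT-repeat factor of 40S export, had 95.0, 97.0, 109 and 93.6 and 92.4, 77.5, 86.0 and 77.5 CPM (-0.24 ± 0.091, edgeR adjusted p = 0.301). For these 3 genes too the highest MR tumor was below the lowest control tumor.

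The roles differed in how evenly their members lay. All 8 SSU processome genes had values below 0 (median -0.11), as had 7 of the 9 60S genes (-0.09), 5 of the 8 snoRNP genes (-0.07) and 3 of the 4 late 40S factors (-0.14). The 4 polymerase subunits split, with Polr1a and Polr1b below 0 and Polr1c and Polr1e, at 0.17 and 0.06, above. Of the 5 nucleolar genes, Gnl3 (nucleostemin) and Npm1 were above 0 at 0.19 and 0.13, Ncl lay at -0.0004, and Ddx21 and Mybbp1a stood at -0.21 and -0.26.

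DESeq2's Wald test on the same counts called 3 of the 39 genes lower, namely Rrp1b (DESeq2 adjusted p = 0.0253), Polr1b (0.0279) and Heatr1 (0.0327), where it called 1.61% of all genes lower. The same 3 had an adjusted p under 0.05 in the authors' deposited table, where 353 of the 15507 genes listed had, in either direction. Their log2 fold changes there were -0.33, -0.28 and -0.30. The deposited values come from the same libraries, so they are no separate evidence. The lowest adjusted p among the 39 in the authors' deposited tables of the other materials was 0.0992 in T cells and 0.9998 in BPD6. DESeq2 called 0 of the 39 genes in those 2 materials, and limma-voom called 0 in each of the 3.

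**Figure D2:**
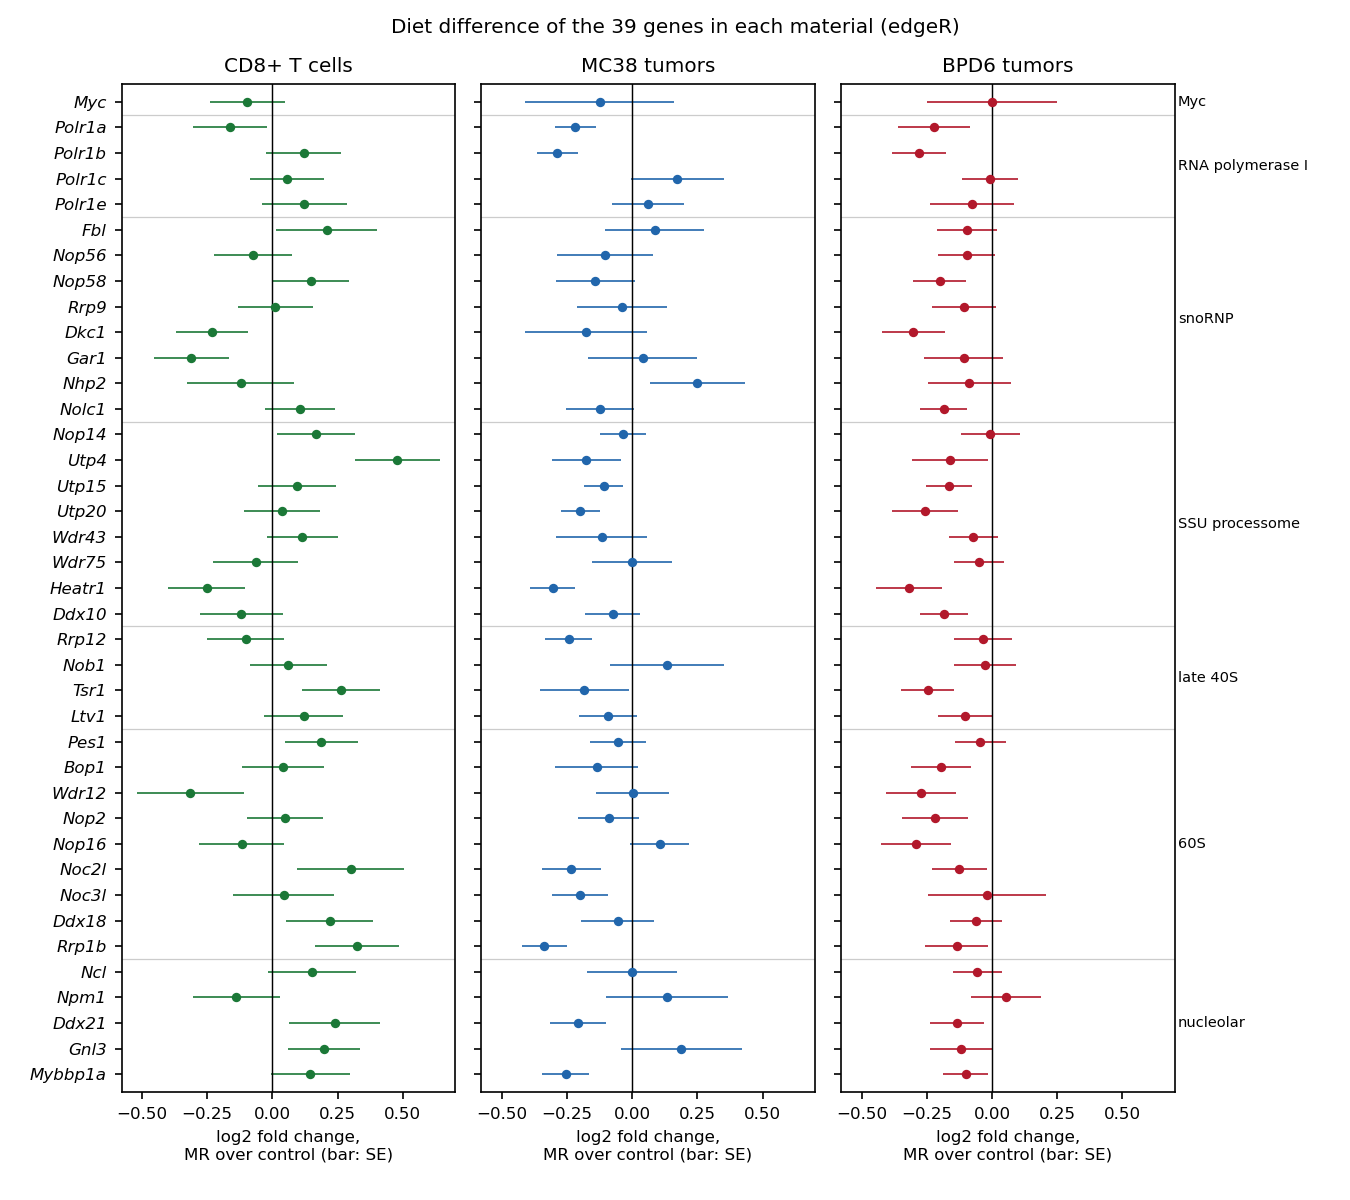
Log2 fold change of MR over control for each of the 39 genes in the 3 materials, with the standard error as a bar, from edgeR. Points lie on both sides of 0 in T cells, on the lower side for 29 of 39 genes in MC38 and for 38 of 39 in BPD6, and none passed the adjusted threshold.

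Coding length went with the MC38 values. Of the 7 genes, Polr1b, Rrp12, Mybbp1a, Polr1a, Heatr1 and Utp20 are the 6 of the 39 with at least 3000 bases of coding sequence (3405 to 8367 bases), and Rrp1b has 2172. The median log2 fold change was -0.25 over these 6 long genes and 0.07 over the 12 with under 1500 bases. Across the 39 genes, which share the same 8 libraries, Spearman's rho between coding length and log2 fold change was -0.74; across 13129 genes of the table it was -0.47, with medians of -0.19 for the long and 0.12 for the short genes. In BPD6 rho was -0.25 over the 39 genes and -0.13 over all, and in T cells 0.17 and 0.04.

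After a correction for the trend with coding length, added after the data were seen, the MC38 median of the 39 genes was -0.04, with 24 genes below 0. Polr1a and Utp20 then stood at 0.04 and 0.15, Heatr1 at -0.02, Mybbp1a at -0.05, Polr1b at -0.12 and Rrp1b at -0.26. The edgeR adjusted p of the 6 genes just named was then 0.445 to 0.959. Rrp12, also lower without overlap before the correction, is not among them, and its corrected value is not given. In BPD6 the corrected median was -0.12 with 37 genes below 0, and in T cells 0.04 with 14 below.

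**Figure D3:**
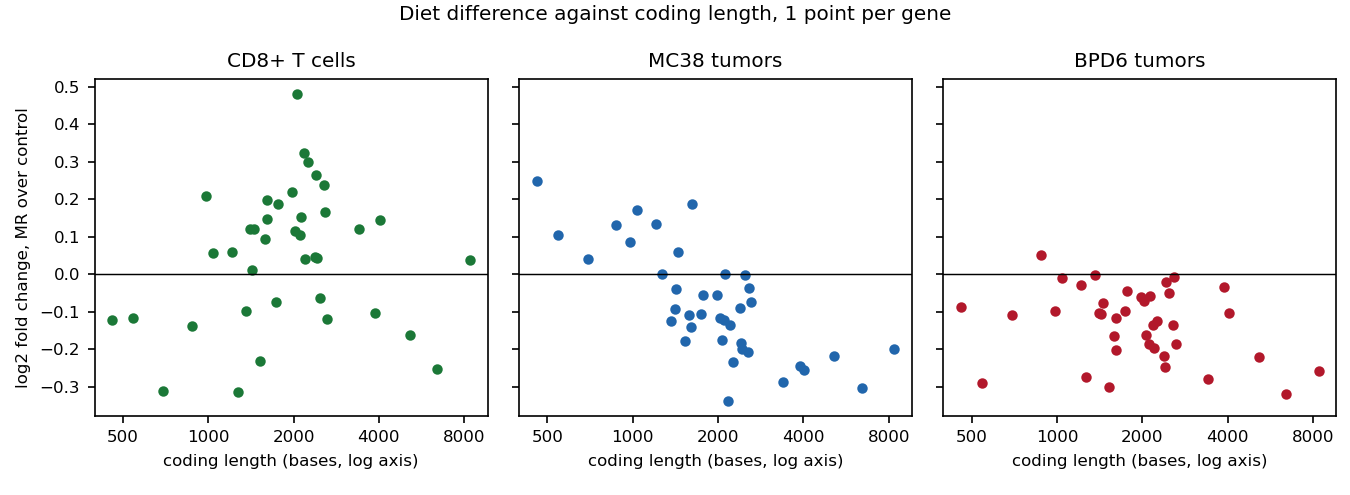
Log2 fold change of MR over control against coding length, on a log axis in bases, with 1 point per gene in each material. In MC38 the 6 genes from 3000 bases up all lie below 0 and most genes under 1500 bases lie above 0; the slope is weaker in BPD6 and not seen in T cells.

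Single libraries carried much of the spread in MC38. MR tumor 1 had the highest level of 20 of the 39 genes, against 27.7% of all genes, and control tumor 3 of 10, against 10.6%. MR tumor 2 had the lowest level of 24, and the share of all genes lowest there was not counted. Control tumor 3 was above the mean of the 8 tumors for all 39 genes, and MR tumor 2 for 1. Myc followed the same libraries, with 172, 223, 261 and 137 CPM in control tumors 1 to 4 and 283, 125, 190.0 and 128 CPM in MR tumors 1 to 4. Its highest values were in MR tumor 1 and control tumor 3 and its lowest in MR tumor 2, so the diet groups overlapped (-0.12 ± 0.29, edgeR adjusted p = 0.850).

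Npm1 had 1504, 1802, 2087 and 1391 CPM in control and 2827, 1389, 1801 and 1418 CPM in MR tumors in the same order. The snoRNP gene Nhp2 had 148, 195, 192 and 147 and 279, 184, 189.7 and 157 CPM, and Nob1, the endonuclease that finishes 18S rRNA, 87.6, 102, 135 and 81.9 and 161, 94.0, 103 and 88.6 CPM. All 3 were highest in MR tumor 1. In contrast, MR tumor 1 had the lowest Polr1b and Heatr1 of all 8 tumors.

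The TMM factor of MR tumor 1 was 0.899, the lowest of the 8. Summed markers of 7 macrophage genes were 581, 1595, 1236 and 871 CPM in MR tumors 1 to 4 and 411 to 864 in control tumors. Those of 5 fibroblast genes were 929, 2231, 2107 and 1363 CPM in MR tumors 1 to 4 and 949 to 1654 in control tumors. All 7 macrophage and all 4 fat cell markers had positive log2 fold changes with MR in MC38, the latter summing to 8.71 to 41.4 CPM in control and 17.4 to 186 CPM in MR tumors. So had all 4 T cell markers, with a median of 1.16 and sums of 5.63 to 13.1 and 8.10 to 42.7 CPM. B cell markers summed to 212 CPM in MR tumor 3 and to at most 59.7 CPM in the other 7 tumors. Proliferation genes summed to 3731 CPM in MR tumor 1 and to 3025 to 3424 in the other 7. The part of cell makeup in the tumor values was not tested. The median log2 fold change of the 39 genes was -0.22 without MR tumor 1 (37 genes below 0), -0.0091 without MR tumor 2 (21 below) and -0.02 without control tumor 3 (24 below).

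**Figure D4:**
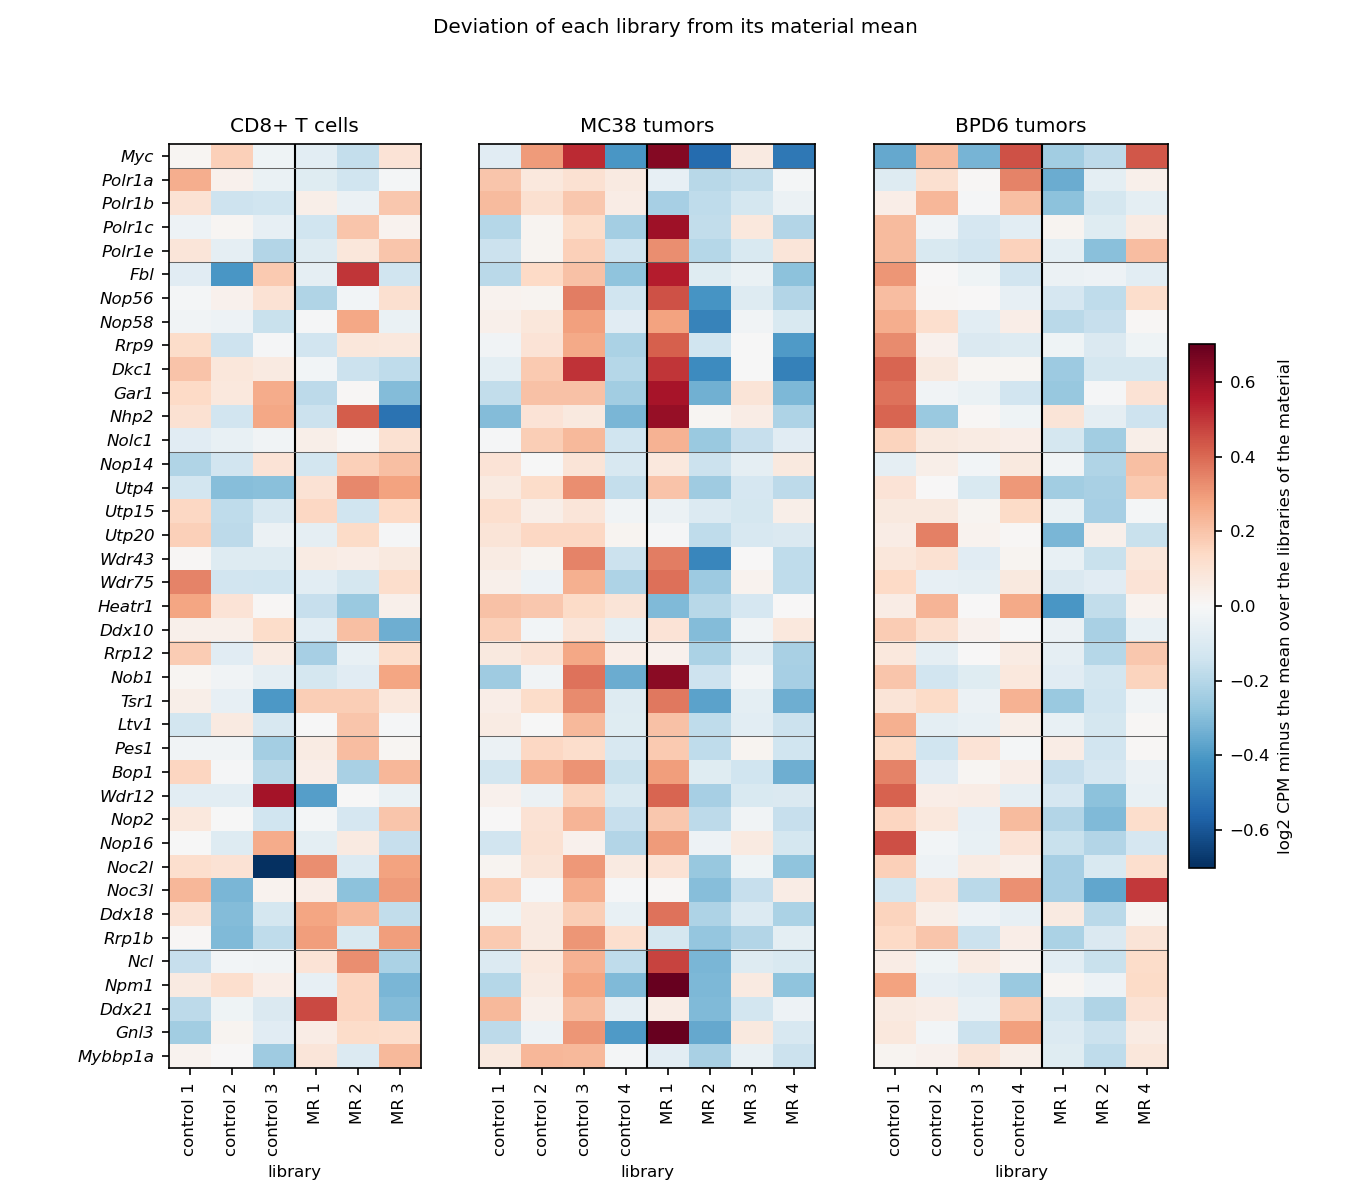
Each cell is the log2 CPM of a gene in a library minus its mean over the libraries of that material, from blue (lower) to red (higher), with a black line between control and MR libraries. In MC38 the columns of MR tumor 1 and control tumor 3 are mostly red and that of MR tumor 2 mostly blue; in BPD6 the column of control tumor 1 is mostly red, with Myc blue.

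In BPD6 tumors the differences were small and of 1 sign: 38 of the 39 genes had a log2 fold change below 0, as did 51.6% of all 13978 genes. The median was -0.11 and the range -0.32 to 0.05, beside a median of -0.0071 for all genes. None passed the test (edgeR adjusted p under 0.05, n = 4 against 3), and 0% of all genes did, with every adjusted p close to 1. At an unadjusted p under 0.05 there were 4 genes lower, against 0.78% of all genes, and 0 higher, against 1.07%. Groups did not overlap for 6 genes, all lower with MR, against 1.9% of all genes, and for 0 higher, against 1.5%.

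Polr1b had the lowest p, with 37.5, 42.7, 36.1 and 42.0 CPM in control and 29.8, 33.3 and 34.7 CPM in MR tumors. No MR tumor reached the lowest control tumor, and the log2 fold change was -0.28 ± 0.10 (edgeR adjusted p = 0.9997). Dkc1 had 88.4, 69.9, 67.3 and 67.2 CPM against 55.8, 61.2 and 61.1, also without overlap (-0.30 ± 0.12, edgeR adjusted p = 0.9997). Nop16, a 60S assembly factor known as a Myc target (chromosome 13, 54584191 to 54590097), had 66.4, 47.9, 46.9 and 52.0 CPM against 43.7, 42.2 and 44.8, likewise apart (-0.29 ± 0.13, edgeR adjusted p = 0.9997). Control tumor 1 was the highest for both; without it the values were -0.19 for Dkc1 and -0.16 for Nop16.

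Heatr1 had 71.4, 81.3, 69.1 and 82.8 CPM in control and 51.9, 61.2 and 70 CPM in MR tumors, with MR tumor 4 inside the control range (-0.32 ± 0.13, edgeR adjusted p = 0.9997). Tsr1 had 90.6, 93.2, 82.5 and 100.5 CPM against 71.0, 77.1 and 83.6 (-0.25 ± 0.10, edgeR adjusted p = 0.9997). Wdr12, the WD-repeat member of the PeBoW complex of 60S assembly, had 40.9, 31.7, 31.8 and 29.4 CPM against 28.2, 25.2 and 29.6 (-0.27 ± 0.13, edgeR adjusted p = 0.9997). For Tsr1 and Wdr12 at least 1 MR tumor lay inside the control range, and without control tumor 1 Wdr12 stood at -0.16. The other genes whose groups did not overlap were Nolc1, a snoRNP chaperone, Utp15 and Ddx10. Myc is 1 of the 38 below 0 by sign alone: it had 86.9, 129.8, 88.8 and 152 CPM in control and 94.0, 98.1 and 150.3 CPM in MR tumors, which overlapped, and the log2 value was -0.0016 ± 0.25 (edgeR adjusted p = 0.9997).

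By role, the BPD6 medians were -0.16 for the SSU processome, -0.15 for the polymerase subunits, -0.14 for the 60S genes, -0.11 for the snoRNP genes, -0.10 for the nucleolar genes and -0.07 for the late 40S factors. Npm1, at 0.05, was the 1 gene above 0.

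BPD6 libraries differed among themselves too. Control tumor 1 had the highest level of 21 of the 39 genes, against 21.2% of all genes, but the lowest Myc. MR tumor 2 had the lowest level of 19, and the share of all genes lowest there was not counted. Without MR tumor 4 the median log2 fold change was -0.22 with all 39 genes below 0, and without MR tumor 2 it was -0.09 with 29 below. All 14 proliferation genes were also below 0, with a median of -0.20 and none past the test. Summed macrophage markers were 1141 to 1518 CPM in control and 1228 to 1668 CPM in MR tumors, with 6 of 7 above 0. All 4 T cell, all 4 red cell and all 4 fat cell markers had log2 fold changes above 0 as well, with medians of 0.40, 0.64 and 0.69. Their sums overlapped between diets, at 0.639 to 11.8 and 4.18 to 10.5 CPM, 41.5 to 181 and 54.4 to 267 CPM, and 9.28 to 21.8 and 8.70 to 34.3 CPM. The part of these cells in the BPD6 values was not tested.

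Between the tumor models on control diet, the pathway differed broadly. Of the 39 genes, 34 were higher in MC38 than in BPD6 and 1 was lower (edgeR adjusted p under 0.05, n = 4 against 4, a joint fit over 14257 genes), where 30.7% of all genes were higher and 32.6% lower. The median log2 difference was 0.81, beside -0.04 for all genes. Among genes with the same transcript in both tables, 31 of 35 were higher, against 31.6% of all such genes, and 1 was lower, against 30.2%. Scaling by library size alone moved the median of all genes to 0.25 and that of the 39 to 1.10, and then all 39 passed, with Bop1 still lower.

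Utp15, an SSU processome protein (chromosome 13, 98246845 to 98262992), had the lowest p. Scaled over both tables together, it had 93.3, 88.2, 89.5 and 84.7 CPM in the control MC38 tumors and 41.9, 42.1, 40.4 and 43.8 CPM in the control BPD6 tumors. The groups stood far apart, with a log2 difference of 1.08 ± 0.073 (edgeR adjusted p = 1.81e-08). Polr1b had 106, 98.1, 103 and 95.0 CPM in MC38 and 41.6, 47.6, 39.9 and 46.5 in BPD6, also with no overlap (1.20 ± 0.086, edgeR adjusted p = 3.44e-08). Wdr12 (chromosome 1, 60071361 to 60098500) had the largest log2 difference of the 39, with 94.1, 89.2, 101 and 85.8 CPM in MC38 and 45.3, 35.3, 35.2 and 32.5 in BPD6 (1.32 ± 0.14, edgeR adjusted p = 1.59e-06).

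Nop14, another SSU processome protein (chromosome 5, 34638536 to 34660148), had 138 ± 8.58 CPM in MC38 and 58.6 ± 2.44 CPM in BPD6 (SD, n = 4 each; log2 difference 1.24 ± 0.10, edgeR adjusted p = 6.55e-08). Rrp12 (chromosome 19, 41859483 to 41896153) differed by 1.19 ± 0.10 (edgeR adjusted p = 1.12e-07) and Rrp1b by 1.18 ± 0.10 (edgeR adjusted p = 2.03e-07). Nop2, an rRNA cytosine methyltransferase of the 60S path (chromosome 6, 125131883 to 125144753), had 258 ± 27.9 and 112 ± 9.18 CPM (1.20 ± 0.12, edgeR adjusted p = 9.76e-07). Mybbp1a had 583 ± 44.8 and 319 ± 6.30 CPM (0.87 ± 0.082, edgeR adjusted p = 4.62e-07).

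Every role was represented. All 8 snoRNP genes, all 4 polymerase subunits and all 4 late 40S factors were higher in MC38, with medians of 0.93, 0.72 and 0.52, as were 7 of 8 SSU processome genes (median 0.94), 7 of 9 60S genes (0.87) and 4 of 5 nucleolar genes (0.60). Myc did not pass the test: the joint scaling gave 159, 205, 237 and 127 CPM in MC38 and 96.2, 144, 98.2 and 168 in BPD6, which overlapped (0.52 ± 0.29, edgeR adjusted p = 0.129). Wdr75, Noc3l and Gnl3 also did not pass, at 0.30 ± 0.13, 0.14 ± 0.18 and 0.42 ± 0.20.

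Bop1, the scaffold of the PeBoW complex (chromosome 15, 76452988 to 76477249), was the exception. It had 87.6, 113, 117 and 86.2 CPM in MC38 and 183, 136, 144 and 148 CPM in BPD6, with every BPD6 tumor above every MC38 tumor (-0.59 ± 0.14, edgeR adjusted p = 0.00233). Its partners in that complex, Pes1 and Wdr12, were higher in MC38, at 0.80 ± 0.10 and 1.32 ± 0.14. Exons of Bop1 overlap those of Mroh1 on the opposite strand, and whether the counts used strand is not stated, so reads of the 2 genes cannot be told apart. The same holds for other pairs: 13 of the 39 genes share exon bases with another listed gene, Heatr1 with Lgals8, Rrp1b with Hsf2bp and Mybbp1a with Spns2 among them.

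**Figure D5:**
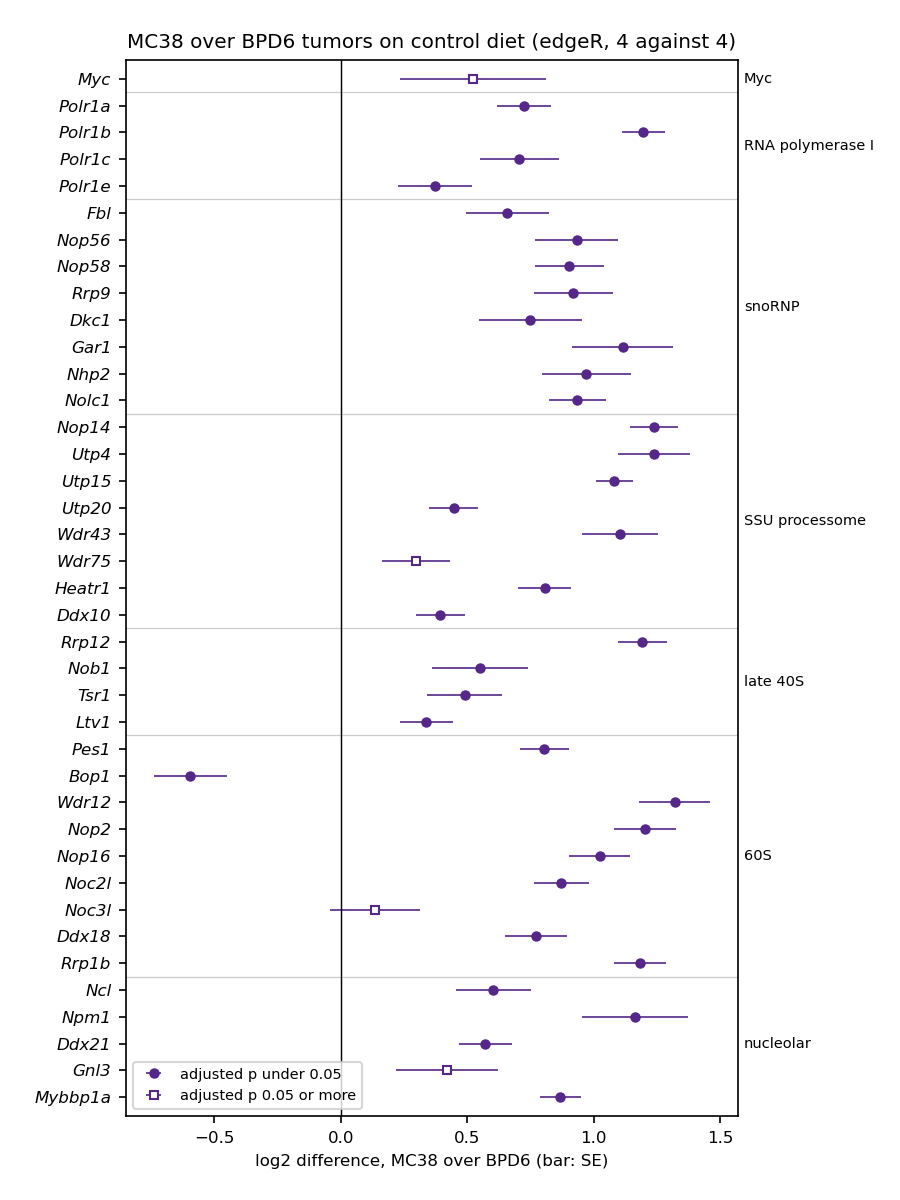
Log2 difference between MC38 and BPD6 tumors on control diet for each of the 39 genes, with the standard error as a bar; filled circles passed an edgeR adjusted p under 0.05 and open squares did not. Bop1 is the only gene left of 0, and Myc, Wdr75, Noc3l and Gnl3 are open.

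The tumor models also differed in makeup. Summed macrophage markers were 411 to 864 CPM in control MC38 and 1141 to 1518 CPM in control BPD6 tumors, and fibroblast markers 949 to 1654 and 4810 to 11350 CPM. Of 14 proliferation genes, 9 were higher in MC38 and none was lower, where 30.7% of all genes were higher and 32.6% lower. Top2a stood at 1.11 ± 0.10 and Mcm2 at 1.23 ± 0.14. Each model stands in its own table, so tumor type and any difference in preparation between the models cannot be told apart.

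Whether the diet differences of the 2 tumor types differed was tested as an interaction, taken as the MC38 minus the BPD6 log2 fold change. None of the 39 genes passed the test (edgeR adjusted p under 0.05), and 0% of all genes did. At an unadjusted p under 0.05 there was 1 gene with a higher value in MC38, against 2.9% of all genes, and 0 with a lower one, against 2.3%. That gene was Nop16, with log2 fold changes of 0.11 ± 0.11 in MC38 and -0.29 ± 0.13 in BPD6 and an interaction of 0.40 ± 0.18 (edgeR adjusted p = 0.849). Rrp12 (-0.21 ± 0.14), Wdr12 (0.28 ± 0.20), Rrp1b (-0.20 ± 0.15), Nhp2 (0.34 ± 0.26) and Mybbp1a (-0.15 ± 0.12) followed, with edgeR adjusted p of 0.861 to 0.862, and Myc had -0.12 ± 0.42 (0.961). DESeq2 called 0 of the 39 and 10 of all genes. Single libraries moved the values: without BPD6 MR tumor 4 they were -0.08 for Rrp12, -0.10 for Rrp1b and -0.07 for Mybbp1a, and Mybbp1a stood at -0.23 without MC38 control tumor 4. Wdr12 and Nhp2 stood at 0.12 and 0.15 without MC38 MR tumor 1, and at 0.17 and 0.20 without BPD6 control tumor 1.

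Of 94 further ribosome biogenesis genes tested, none passed between diets in any material (edgeR adjusted p under 0.05); medians were 0.04 in T cells (36 below 0), -0.04 in MC38 (52 below) and -0.09 in BPD6 (74 below). The lowest p in MC38 belonged to Nol9, a polynucleotide kinase of 60S rRNA processing (-0.50 ± 0.11, edgeR adjusted p = 0.243), and Urb1 (-0.37 ± 0.083, 0.2498). Neither value is corrected for the trend with coding length. Between the tumor models, 54 of the 94 were higher in MC38 and 8 lower (30.7% and 32.6% of all genes), and among the 78 listed under the same transcript in both, 50 were higher and 2 lower. Ddx27, an RNA helicase of 60S assembly, stood at 1.62 ± 0.079 and Nat10, an rRNA cytidine acetyltransferase, at 1.05 ± 0.088 (edgeR adjusted p = 1.11e-09 and 1.50e-07).

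None of the 13 genes of the Myc network tested in T cells and BPD6, or of the 12 in MC38, passed between diets, nor did any of 14 Myc targets outside the nucleolus. Of the 14 targets, 6 had log2 fold changes above 0 and 8 below in T cells (median -0.03). The split was 7 and 7 in MC38 (0.0080) and 1 and 13 in BPD6 (-0.12). In T cells Hspd1 had the lowest p of the 14 (-0.58 ± 0.18, edgeR adjusted p = 0.106). Cad, the enzyme that starts pyrimidine synthesis, had 0.55 ± 0.18 in T cells, -0.44 ± 0.081 in MC38 and -0.29 ± 0.12 in BPD6. Its edgeR adjusted p was 0.124, 0.243 and 0.9997. The MC38 value of Cad is not corrected for the trend with coding length. In MC38 against BPD6, 6 of the 14 targets were higher, where 30.7% of all genes were, and none lower, where 32.6% were. Tfrc, the transferrin receptor, was among the 6 (2.69 ± 0.18, edgeR adjusted p = 1.95e-08).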

How the data were processed

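The 3 tables, 1 per material, were made from bulk RNA-seq reads by the authors, and the mouse build was GRCm38 (mm10) per the submitters' processing notes; the aligner, the counter and the strand setting were not given in the sources used here. Estimated counts, as deposited, were taken per gene, of which 41.0% to 46.8% were not whole, each gene under 1 RefSeq transcript; no listed gene had a highest count under 6. They were rounded to whole numbers. Another 21 per-library columns stayed out. The log2 fold changes and adjusted p-values of the authors' own comparisons are given where named as the authors' deposited table.

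Genes were filtered with filterByExpr, scaled by TMM and tested with edgeR 4.0.16 (quasi-likelihood) in R 4.3.3, with Benjamini-Hochberg adjustment over all genes tested, within each table for diet and over 14257 of the 14422 genes shared by both tumor tables for tumor type and the interaction. Alternatives used DESeq2 1.42.0, limma 3.58.1 (voom), other scaling, no filter, a replicate block, each library left out, and a lowess correction for coding length chosen after seeing the data. The fit was tested on simulated data. No libraries of a group were duplicates: the lowest chi-square per degree of freedom between them was 12.2. Coding lengths and gene positions came from a GRCm38 annotation. In each test the 6 members of lowest p, or the 8 of lowest p where more passed, were named, with Myc throughout, and up to 4 other genes per list. The members and lists were chosen with earlier results of these data known.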

Additional observations from a re-analysis of the deposited data

Results flagged for a closer look

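In groups of 4 tumors, the highest or lowest library was compared with the others by Dixon's test for each of the 39 genes, 117 tests in all, of which chance flags about 1 in 20; 3 values stood apart. Wdr12 had 132.5 CPM in MC38 MR tumor 1, and the nearest of the other 3 MR tumors had 93.1 CPM. Dkc1 had 88.4 CPM in BPD6 control tumor 1, where the next control tumor had 69.9 CPM. Utp20 had 93.06 CPM in BPD6 control tumor 2, above 75.5 CPM in the nearest control tumor. MC38 MR tumor 1 and BPD6 control tumor 1 are also the libraries with the highest level of most of the 39 genes in their tables. Of all genes, 27.7% and 21.2% were highest there.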

How the results depend on the processing

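No gene among the 39 passed between diets in any material or in the interaction under any alternative, except in MC38 with DESeq2, which called 3. The cause was not tested. With library size alone as the scale, the T cell median of the 39 genes was 0.14 and that of all genes 0.08. Leaving out 1 library at a time, the median of the 39 genes ran from 0.05 to 0.11 in T cells, from -0.22 to -0.0091 in MC38 and from -0.22 to -0.087 in BPD6, where the lowest came without MR tumor 4. Between the tumor types, 33 to 39 of the 39 genes passed under the alternatives that kept all of them.

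Directions reversed for 2 named genes besides Myc: with the length correction in MC38, Polr1a stood at 0.041 and Utp20 at 0.15. Myc in MC38 ran from -0.42 without MR tumor 1 to 0.035 without control tumor 3, with 0.015 without MR tumor 2 and 0.0088 without MR tumor 4. In BPD6, Myc was 3.02e-05 with DESeq2 size factors, 2.23e-05 with DESeq2's test, 0.0067 with limma-voom and 0.0020 with no filter; with 1 library left out it ran from -0.25 without MR tumor 4 to 0.17 without control tumor 4, with 0.067 without control tumor 2, 0.12 without MR tumor 1 and 0.093 without MR tumor 2. The interaction for Myc ran from -0.42 without MC38 MR tumor 1, with 0.029 without MC38 control tumor 3, to 0.14 without BPD6 MR tumor 4. Myc thus had no stable direction with diet in either tumor type.

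With a replicate block, 0 of the 39 genes passed in T cells and in MC38, with medians of 0.05 and -0.11. Correlations between same-numbered libraries ran from -0.18 to 0.04 in T cells and from -0.28 to 0.38 in MC38. These are too few to tell whether the numbers mark pairs. The labels do not say that the numbers pair animals, so they were not taken as pairs. No paired analysis was possible in BPD6 because the MR columns are numbered 1, 2 and 4 and the labels 1 to 3. Over all genes, edgeR called 174 in T cells, against 596 with DESeq2, 74 with the block and 7 to 290 with 1 library left out. The count was 0 in MC38, in BPD6 and for the interaction, against 398, 1 and 10 with DESeq2. The number of libraries, 3 or 4 a group, limits the precision of every diet value.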
